A study of Mus musculus with 5 samples.

Results

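The cytosolic ribosomal protein genes encode the proteins of the ribosome outside mitochondria, and they were followed here in single γδ T cells of the mouse. They were taken by symbol, as every gene named Rpl or Rps with a number, Rplp0 to Rplp2 and Rpsa, leaving out processed copies and requiring at least 100 UMIs over the 5 libraries. A UMI, or unique molecular identifier, marks 1 captured transcript. Of the 27998 genes in the matrices, 85 matched the symbols and 82 passed the minimum, 32 of the small and 50 of the large subunit. The 3 left out were Rpl39l with 63 UMIs, Rpl10l with 15 and Rpl3l with 0. The member with the fewest UMIs was Rpl7l1, with 1438.

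A ribosome joins a small subunit, which reads the messenger RNA, to a large subunit, which forms the peptide bond. Each subunit holds ribosomal RNA and 1 copy of most of its proteins, so the proteins are needed in matched amounts, and their messages are among the most abundant of a lymphocyte. These messages commonly begin with a run of pyrimidines, the 5′ terminal oligopyrimidine tract, through which mTOR and LARP1 control their translation in growing T cells. Several members have a paralog encoded by another gene, such as Rps27l for Rps27, Rpl22l1 for Rpl22 and Rpl36al for Rpl36a.

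The γδ T cells carried a receptor with the Vγ4 or the Vγ6 chain and were isolated by flow sorting. C57BL/6 mice of 8 weeks gave 4 libraries, 1 of Vγ4 cells from ear skin and 1 each of Vγ6 cells from ear skin, peripheral lymph node and thymus. The pooled Vγ6 library mixed lymph node of TcrdCreER, thymus of ACT-FLPe and ear skin of TcrdH2BeGFP mice of 8 to 10 weeks, and nothing used here maps its cells to a tissue. Per the labels, skin was digested with collagenase IV and DNase for 75 minutes at 37 °C, and thymus was freed of CD4 and CD8 cells by complement lysis, 30 minutes at the same 37 °C. No incubation was stated for lymph node, so tissue and preparation cannot be told apart.

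The starts of the members that the results turn on are shown as 30-base windows, 15 bases on each side of the RefSeq transcript start in build GRCm38.p6. Capitals mark a run of at least 7 C or T on the transcribed strand, the feature of a pyrimidine tract. The paralog pair whose balance moved most comes first, with both starts of Rps27l that had a window. The start of the Rps27l gene in RefSeq, chr9:66944624, lies farther upstream and had no window.
Rps27, chr3:90213634-90213663, minus strand: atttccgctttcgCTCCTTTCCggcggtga
Rps27l, chr9:66946071-66946100, plus strand: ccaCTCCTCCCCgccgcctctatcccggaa
Rps27l second start, chr9:66946398-66946427, plus strand: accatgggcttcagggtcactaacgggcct
Rpl22l1, chr3:28805493-28805522, plus strand: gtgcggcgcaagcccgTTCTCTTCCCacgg
Rpl22, chr4:152325711-152325740, plus strand: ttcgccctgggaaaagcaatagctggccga
Rpl36a, chrX:134585639-134585668, plus strand: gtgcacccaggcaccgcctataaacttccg
Rpl36al, chr12:69184053-69184082, minus strand: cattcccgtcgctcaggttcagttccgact
Rpl37, chr15:5116598-5116627, plus strand: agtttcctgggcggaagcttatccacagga
Rpl35, chr2:39005117-39005146, minus strand: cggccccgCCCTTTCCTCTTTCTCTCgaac
Rpl35 is shown for the longest run of those printed, 18 bases. Of the 82 genes, 61 had a RefSeq start in the table used, with 72 starts in all. A run of at least 7 pyrimidines stood in the window of 33 of the 61 genes, 54.1%, against 21.3% of the 27025 genes with a window. The window and run length were chosen with the data in view, and a match describes letters, not a regulated site. Rps27 and the first start shown for Rps27l carry such a run, while Rpl37, Rpl36a, Rpl36al and the start shown for Rpl22 do not. The other window of Rpl22, chr4:152324421-152324450, is not printed, and its longest run was 5 bases. The run of Rps27 spans the annotated start, while that of Rps27l lies wholly upstream of the first start shown for it.

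Depth and identity of the libraries set the frame for all values. Between 687 and 2517 cells per library were kept, with a median of 1059 to 2156 UMIs per cell and 793463 to 6607432 UMIs per library. With 1 library per group there was no test between groups. Intervals in parentheses are exact 95% intervals for counting error alone and say nothing of the spread between mice. The 7 T cell markers sought, Cd3g the highest among them, were present in every library, and their summed level was 2352 to 6247 CPM, that is, UMIs per 1e+06 UMIs of the library. A list of 10 genes of IL-17-type γδ T cells summed to 888 CPM in thymus and 2091 to 2912 in the other libraries. Markers of αβ thymocytes summed to 91 CPM in thymus and at most 22 elsewhere, and mast cell markers to 136 and at most 31. Fibroblast markers summed to at most 1.0 CPM. Markers of dendritic and other myeloid cells summed to 251 CPM in skin Vγ4, 841 in skin Vγ6, 1871 in lymph node, 334 in thymus and 1642 in the pooled library. Cd74 or Cst3 led in each library. In lymph node 6 of the 8 genes reached 20 CPM, and Csf1r was at 0 there as in skin Vγ4 and thymus. In lymph node, 599 of 1458 kept cells carried at least 2 marker genes and 3 UMIs of another cell type. Any 2 libraries shared 0 to 9 cell barcodes.

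The 82 genes together took 20.2% (20.1 to 20.2) of all UMIs in skin Vγ4, 15.9% (15.8 to 16.0) in skin Vγ6, 17.0% (17.0 to 17.0) in lymph node, 19.4% (19.4 to 19.5) in thymus and 15.2% (15.2 to 15.2) in the pooled library. Skin Vγ4 and thymus were high, and skin Vγ6 and the pool low. Every neighbouring step in that order exceeded the counting intervals. The step from skin Vγ6 to lymph node narrowed when the deepest cells were left out. The order of the 2 lowest rests on which genes are counted: with the processed copies described below added, the share was 16.5% in skin Vγ6 and 16.7% in the pool.

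**Figure D1:**
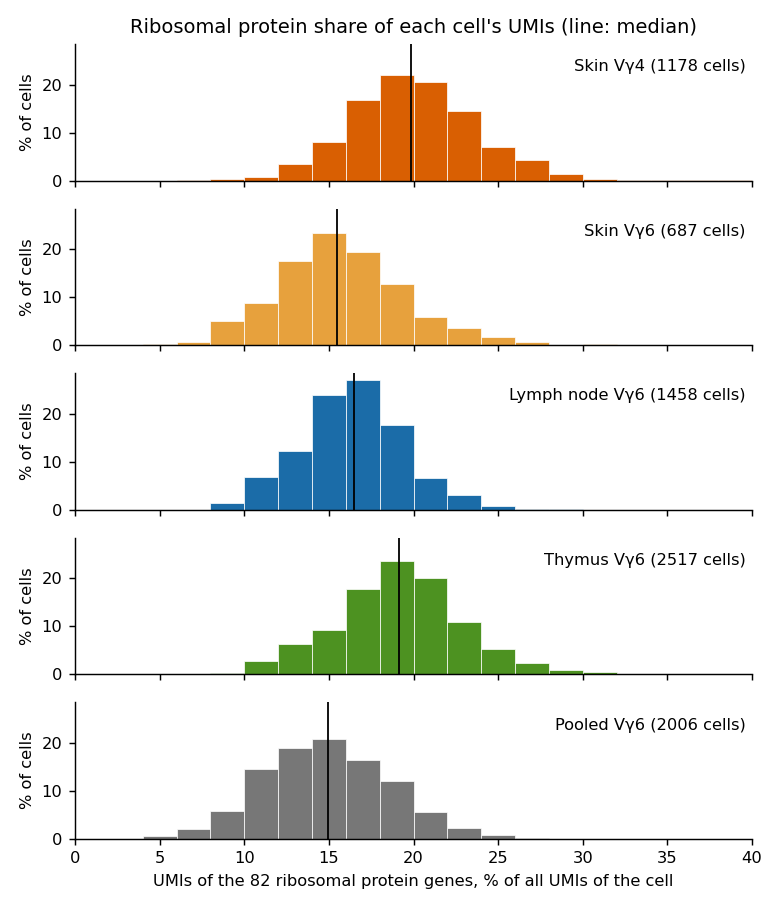
Distribution over kept cells of the share of a cell's UMIs (x axis, %) that came from the 82 ribosomal protein genes, as % of cells in bins (y axis), 1 panel per library, with the median as a line. The medians are 19.9% in skin Vγ4, 15.5% in skin Vγ6, 16.5% in lymph node, 19.2% in thymus and 14.9% in the pooled library, and the distributions overlap broadly.

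Single cells spread widely around these shares. Leaving out the lowest and the highest 5% of cells, the share ran from 14.3% to 26.4% in skin Vγ4, 9.68% to 22.5% in skin Vγ6, 11.0% to 21.4% in lymph node, 12.7% to 25.4% in thymus and 8.92% to 21.1% in the pool. Each library had 1 broad peak, and the 5 peaks overlapped. Depth moved with the share in part of the libraries. In thymus the median share was 17.3% in the cells of the lowest quartile by UMIs and 19.7% in those of the highest, and in the pool 13.1% and 16.1%. In lymph node it was 16.2% and 16.4%.

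The 2 subunits varied together. Large-subunit genes gave 1.27 to 1.34 UMIs for each small-subunit UMI, a narrow range for libraries whose total share differed by more. Within each library, cells with more small-subunit message also had more large-subunit message. In thymus the median large-subunit share climbed from 8.23% in the lowest quartile of cells by small-subunit share to 12.8% in the highest, and in skin Vγ6 from 6.85% to 10.8%. The other 3 libraries showed the same climb at each step.

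Levels among the members differed far more than any member differed between libraries. Because 3′ counting gives each transcript 1 UMI whatever its length, levels of different genes were set side by side without dividing by length. Members with near-identical copies, treated below, can lose UMIs to them, which the levels given here do not correct. In skin Vγ6 the members ranged from 73.1 to 7603 CPM with a median of 1598 CPM, and in thymus from 74.3 to 8070 CPM with a median of 2074. The 5 most abundant were Rps27, Rpl41, Rpl35, Rps19 and Rps29, and these took 16.5% to 18.5% of the ribosomal protein UMIs. Rps27, a zinc-finger protein of the small subunit, stood at 8997 CPM in skin Vγ4, 7603 in skin Vγ6, 5748 in lymph node, 7597 in thymus and 6601 in the pool. Rpl41, the very short basic peptide of the large subunit, stood at 7287, 6315, 8329, 8070 and 6211 CPM in the same order. Counted alone, Rps27 thus led in both skin libraries and the pool and was second to Rpl41 in lymph node and thymus. With its near-identical copy Rps27rt added, it was 8711 CPM in thymus, above Rpl41, and 6933 in lymph node, still below it. Rpl35, near the exit of the nascent chain, stayed between 4831 and 5959 CPM, and Rps19, needed for small-subunit maturation, between 4883 and 6061.

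At the median, members ranged less as a share of the set than in CPM. Expressed as a share of the ribosomal protein UMIs of its own library, a member's highest value over its lowest across the 5 libraries had a median of 1.26-fold, and 74 of 82 members stayed under 1.5-fold. Rps18, at 1.08-fold, was the steadiest. Only 4 members reached 2-fold: Rps27l at 4.01-fold, Rpl6l at 2.53-fold, Rpl36al at 2.42-fold and Rpl7l1 at 2.29-fold. All 4 are annotated as "-like" genes. Rpl37 followed at 1.84-fold. In CPM the median range was 1.51-fold, with 41 of 82 members under 1.5-fold. By CPM, 42 members were highest in skin Vγ4 and 31 in thymus, while 37 were lowest in the pool and 36 in skin Vγ6.

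In the comparisons that follow, a member was called higher or lower when its CPM differed at least 2-fold, the interval excluded a ratio of 1, and the higher library reached 20 CPM. A separate call on balance used a member's share of the ribosomal protein UMIs, at least 1.5-fold apart, which does not depend on how the other genes are scaled. The same rules over all genes with 20 CPM in either library give the background shares printed beside the counts. In balance the other genes were also divided by the ribosomal protein UMIs, so that background carries any shift of the set's total. The members are divided by their own sum and cannot carry it as a set. All 82 members were measured in every comparison. The first 3 comparisons share libraries and are therefore not independent.

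**Figure D2:**
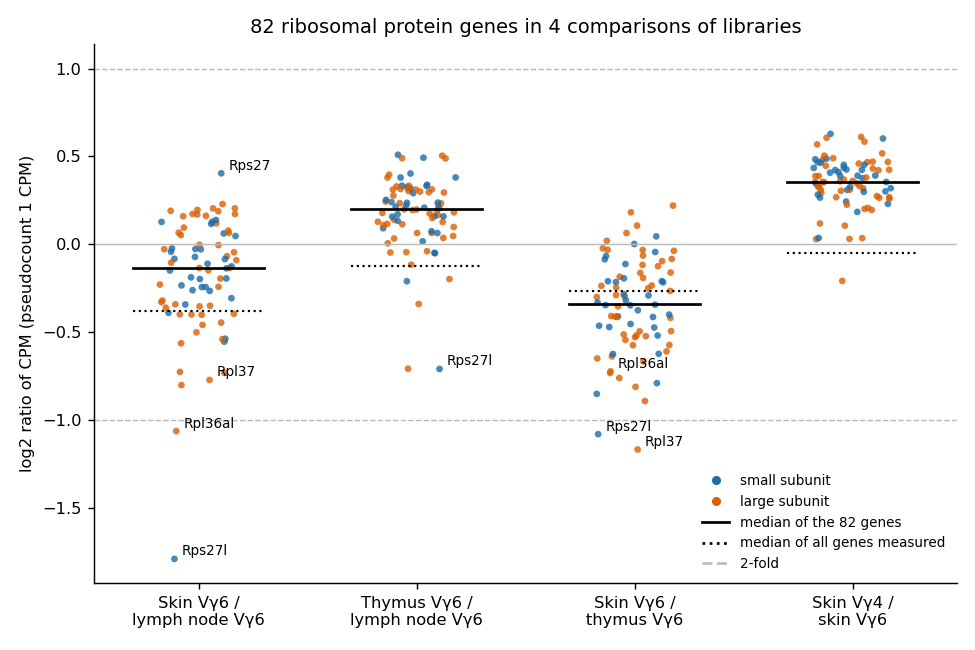
Log2 ratio of CPM (y axis, pseudocount 1 CPM) of each of the 82 genes in 4 comparisons of libraries (x axis), with small-subunit genes in blue, large-subunit genes in orange, the median of the 82 genes as a solid line, the median of all genes measured as a dotted line and 2-fold as dashes. Members cluster near their median, and Rps27l at -1.79 is the farthest out in skin over lymph node.

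Skin Vγ6 against lymph node compared cells of 1 receptor type from ear skin and from lymph node. No member was called higher (background 16% of 5770 genes) and 2 of 82 were called lower (background 30.4%), fewer than among all genes measured. Rps27l, the Rps27 paralog, fell to 228 CPM in skin from 792 in lymph node, 3.47-fold lower (2.99 to 4.05). Rpl36al was 415 against 868 CPM, 2.09-fold lower (1.87 to 2.35). The median log2 ratio of the members was -0.14, with 24 above and 58 below 0, and that of all genes -0.38. This direction reversed with scaling: TMM and median-of-ratios factors moved all ratios up by 0.25 and 0.28 on the log2 scale and gave medians of 0.12 and 0.14, with 1 member called lower, Rps27l. By those factors 47.1% and 48.1% of the calls over all genes were higher, against 34.4% by total UMIs. No single direction of the set in this comparison can therefore be given.

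The balance within the set did not depend on that scaling. In skin, 6 members held at least 1.5-fold less of the ribosomal protein UMIs than in lymph node (background 37.3%) and none held more (background 23.8%). Besides Rps27l and Rpl36al these were Rpl37, Rpl5, Rpl22 and Rpl7l1. Rpl37, a zinc-binding protein of the large subunit, was 1490 CPM in skin and 2545 in lymph node, a ratio of shares of 0.63 (0.59 to 0.66). Rpl5, which carries the 5S ribosomal RNA, was 321 against 561 CPM, a ratio of shares of 0.61 (0.54 to 0.70). At the other end Rps27 had 1.41 (1.37 to 1.45) times its lymph node share, Rpl30 1.25 (1.15 to 1.36), Rplp1 and Rpl21 both 1.23, and Rplp0 1.22. Dividing cells, those with at least 3 of 15 cycling genes detected, were 4.66% of the skin Vγ6 and 54.4% of the lymph node cells. This call counts detected genes, so it can rise with depth. Cells of at least 800 UMIs were also thinned to that number, and shallower cells were left out. The call then took 28 of 562 cells in skin Vγ6 and 451 of 1458 in lymph node. Without the dividing cells called at full depth, 3 of the 6 members passed. Those 3 were Rps27l, Rpl36al and Rpl37. The count was also 3 without cells carrying markers of another cell type, and 3 with cells thinned to 800 UMIs in that way. Among non-dividing cells Rps27 was 7829 CPM in skin Vγ6 and 8286 in lymph node. The set took 16.0% and 17.0% of UMIs in those cells, so Rps27 held a similar part of it in both. In CPM the same 6 members were lower at 1.5-fold (background 40.7%) and none was higher (background 22.2%). Immediate-early genes summed to 11965 CPM in skin and 1826 in lymph node, and their part in these values was not tested.

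Thymus Vγ6 against lymph node gave a higher set in thymus. The median log2 ratio was 0.20, with 71 members above and 11 below 0, against a median of -0.13 over all genes, and it was 0.32 and 0.23 with TMM and median-of-ratios factors. No member passed 2-fold in either direction (background 11.8% higher and 11.3% lower of 5703 genes). The largest gains were modest. Rps3a1, of the small subunit, was 2289 CPM in thymus and 1608 in lymph node, a ratio of 1.42 (1.38 to 1.47). Rps15a was 3209 against 2281 CPM, 1.41 (1.37 to 1.44). Rpl12, Rpl15 and Rpl9 had ratios of 1.42, 1.40 and 1.40. In balance, none gained (background 15.3%) and 2 lost in thymus (background 35.1%): Rps27l, at 484 against 792 CPM with a ratio of shares of 0.54 (0.51 to 0.56), and Rpl7l1, at 74.3 against 122 CPM with 0.53 (0.47 to 0.60). At 1.5-fold in CPM the same 2 were lower (background 25.1%) and none was higher (background 19.4%). Without dividing cells Rps27l no longer passed in balance, while Rpl7l1 did.

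Skin Vγ6 against thymus gave a lower set in skin. The median log2 ratio was -0.34, with 75 of 82 members below 0, against -0.27 over all genes, so the members lay close to other genes. With TMM and median-of-ratios factors the members' median was -0.20 and -0.10, with 62 and 51 members below 0. The medians over all genes were then -0.12 and -0.008. None was called higher (background 13.7% of 5656 genes) and 2 were called lower (background 24.5%). Rpl37 was 1490 CPM in skin and 3350 in thymus, 2.25-fold lower (2.12 to 2.39), and Rps27l was 228 against 484 CPM, 2.12-fold lower (1.83 to 2.48). At 1.5-fold, 15 members were lower (background 35.1%) and none was higher (background 20.4%). At 2-fold, with TMM factors 1 was called and with median-of-ratios factors 0. In balance, none gained (background 27.7%) and 3 lost in skin (background 24.7%), namely Rpl37, Rps27l and Rpl28, the last at 586 against 1089 CPM. Only Rpl37 passed in balance without dividing cells. Rpl35 and Rpl30 led the other end, with 1.42 and 1.38 times their thymus share.

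Skin Vγ4 against skin Vγ6 compared 2 γδ subsets of 1 tissue. All but 1 member had a higher CPM in Vγ4 cells, the exception being Rpl7l1 at 63.1 against 73.1 CPM. The median log2 ratio was 0.36 against -0.05 over all genes, and 0.45 and 0.39 with TMM and median-of-ratios factors, so 81 members stayed above 0 in each. The gain was even: no member passed 2-fold (background 4.26% higher and 3.18% lower of 4973 genes), and none passed 1.5-fold in balance (background 3.16% higher and 26.2% lower). At 1.5-fold in CPM, 4 members passed upwards (background 7.34%) and 0 downwards (background 7.72%). These were Rps3a1 at 1959 against 1268 CPM, Rpl12 at 901 against 590, Rpl29 at 946 against 621 and Rps20 at 1322 against 871. Rpl35 moved least of the abundant members, at 5959 against 5841 CPM. Keratinocyte markers summed to 1090 CPM in skin Vγ4 and 260 in skin Vγ6, with Sfn at 394 and 226 CPM, and myeloid markers ran the other way, at 251 and 841. Without cells that carry markers of another cell type, the share remained within counting error at each of the 2 libraries.

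Groups of members with a shared place in the ribosome mostly moved with the set. The P stalk, which recruits elongation factors, is built from Rplp0, Rplp1 and Rplp2. Rplp0 was 4019 CPM in skin Vγ4, 2901 in skin Vγ6, 2534 in lymph node, 2978 in thymus and 2494 in the pool. Its 3 genes had a median log2 ratio within the set of 0.29 in skin Vγ6 over lymph node and 0.25 in skin Vγ6 over thymus, and -0.04 in skin Vγ4 over skin Vγ6. The stalk took a larger part of the set in skin Vγ6 than in lymph node or thymus, and a similar part in both skin libraries. The 5S particle, Rpl5 with Rpl11, is known for holding Mdm2 when ribosome assembly stalls. Rpl11 was 1200 CPM in skin Vγ6, 1521 in lymph node and 1868 in thymus. The 2 genes had a median within the set of -0.48 in skin Vγ6 over lymph node and -0.41 over thymus, and of 0.08 in skin Vγ4 over skin Vγ6. The 8 proteins at the exit tunnel, Rpl35 and Rpl39 among them, stood at 0.10 in skin Vγ6 over lymph node and 0.07 over thymus. The 5 around the mRNA channel, such as Rps2 and Rps26, stood at -0.17 over lymph node.

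The paralog pairs showed which protein variant the cells' messages favoured. Rps27l made up 2.53% (2.31 to 2.77) of the UMIs of Rps27 and Rps27l in skin Vγ4, 2.91% (2.51 to 3.36) in skin Vγ6, 12.1% (11.7 to 12.5) in lymph node, 5.99% (5.79 to 6.19) in thymus and 4.50% (4.22 to 4.79) in the pool. The lymph node share was the highest and the 2 skin shares, whose intervals overlap, the lowest. The lymph node value differed between its dividing and its other cells. In the dividing cells, 460 of 793 of which carried markers of another cell type, the share was 15.7% (15.2 to 16.3), and in the other cells 4.95% (4.52 to 5.41), beside 4.27% (4.04 to 4.50) in the other cells of thymus. Rps27rt, a near-identical copy of Rps27 treated below, was also added to the parent over all cells. Rps27l then held 2.16% in skin Vγ4, 2.44% in skin Vγ6, 10.3% in lymph node, 5.26% in thymus and 3.03% in the pool. Rps27l is known as a target of p53. Rpl36al made up 26.0% (24.4 to 27.5) of its pair in skin Vγ4, 30.4% (27.7 to 33.3) in skin Vγ6, 43.6% (42.6 to 44.7) in lymph node, 33.1% (32.3 to 33.9) in thymus and 34.9% (33.5 to 36.3) in the pool, again highest in lymph node, where it was 42.8% (41.6 to 44.0) in dividing and 46.5% (44.2 to 48.8) in other cells. Rpl22l1 behaved differently. It outnumbered Rpl22, a protein needed for αβ but not γδ T cell development, in all 5 libraries, with 64.9% to 70.3% of the pair. Rpl7l1 was a minor part of its pair with Rpl7, 5.41% to 9.53%. None of these 4 paralogs shares a 31-base stretch with its partner's annotated transcripts, so reads of the pair are separable at that length.

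Dividing cells held a different mixture of members than the other cells of the same library. They numbered 81 of 1178 in skin Vγ4, 32 of 687 in skin Vγ6, 793 of 1458 in lymph node, 883 of 2517 in thymus and 160 of 2006 in the pool. The total share was not raised in them: it was 18.6% in dividing and 20.4% in other cells of skin Vγ4, 15.4% and 16.0% for skin Vγ6, 17.0% in both in lymph node, 19.0% and 19.9% in thymus, and 13.9% and 15.4% in the pool. Dividing cells were deeper, with a median of 2695 against 1425 UMIs in lymph node and 3294 against 1904 in thymus. With cells thinned to 800 UMIs, 451 of 1458 were called dividing in lymph node and 343 of 2507 in thymus. In lymph node, 460 of the 793 also carried markers of another cell type, against 71 of 883 in thymus and 1 to 27 in the other libraries.

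Rps27l was higher in dividing cells of all 5 libraries. Its level in other and in dividing cells was 217 and 346 CPM for skin Vγ4, 210 and 407 for skin Vγ6, 432 and 913 for lymph node, 387 and 579 for thymus, and 272 and 514 for the pool. As a share of the ribosomal protein UMIs this was 1.75 (1.36 to 2.21), 2.01 (1.31 to 2.99), 2.12 (1.92 to 2.34), 1.57 (1.46 to 1.69) and 2.10 (1.81 to 2.43) times the share in other cells. The parent moved the opposite way in each library. Rps27 was 9391 CPM in other and 6328 in dividing cells of skin Vγ4, 7829 and 5402 for skin Vγ6, 8286 and 4890 for lymph node, 8673 and 6538 in thymus, and 7056 and 4241 in the pool. Its ratio of shares lay between 0.59 and 0.79, with every interval below 1. Among other cells lymph node was inside the range of the remaining libraries for Rps27, whereas among all cells it was the lowest.

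**Figure D3:**
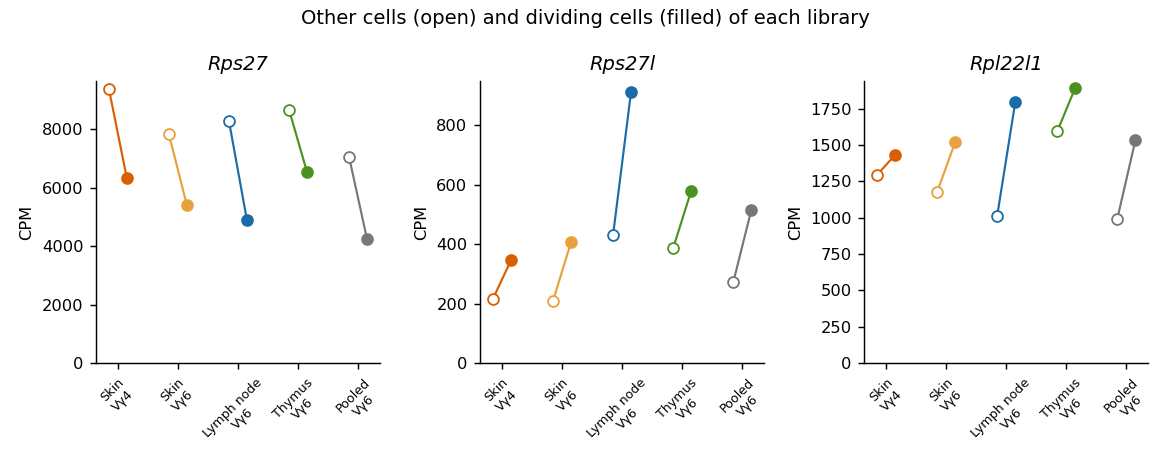
CPM (y axis) of Rps27, Rps27l and Rpl22l1 in the other cells (open circles) and the dividing cells (filled circles) of each of the 5 libraries (x axis), 1 value per library and class. Rps27 is lower and Rps27l and Rpl22l1 are higher in dividing cells in all 5 libraries, with each cell at its full depth.

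The contrast depended in part on which cells were counted. Without cells carrying markers of another cell type the lymph node ratio of shares was 1.42 for Rps27l and 0.82 for Rps27, against 2.12 and 0.59 with them, while in the other 4 libraries it was 1.49 to 2.09 for Rps27l. Thinning to 800 UMIs left out the cells below that depth, so 562 of 687 remained in skin Vγ6 and 1683 of 2006 in the pool. With cells so thinned before dividing cells were called, Rps27l was 1.27 in skin Vγ6 and 1.51 in the pool. Those 2 intervals include 1, and Rps27l was 1.60 to 2.32 in the other 3 libraries. Rps27 remained below 1 in all 5 under both changes. Thinned in the same way, Rpl22l1 was 1.11 (0.79 to 1.51) in skin Vγ4 and 1.16 (0.76 to 1.71) in skin Vγ6. Those intervals include 1, and Rpl22l1 was 1.19 to 1.68 in the other 3 libraries. The thinned contrast rests on 28 dividing cells in skin Vγ6.

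Over all 82 members, 25 had a higher share in dividing cells of all 5 libraries (background 23.3% of 3891 genes measured in each) and 12 a lower one (background 10.8%). Intervals lay above 1 in all 5 for 5 members (background 5.29%) and below 1 for 5 (background 1.08%), so the count on the high side is near the background. Those on the high side were Rps27l, Rpl22l1, Rps4x, Rpl39 and Rpl29. Rpl22l1 stood at 1294 CPM in other and 1432 in dividing cells of skin Vγ4, 1177 and 1520 for skin Vγ6, 1015 and 1794 for lymph node, 1594 and 1894 in thymus, and 994 and 1531 in the pool. Rps4x, a small-subunit protein encoded on the X chromosome, had 1.19 to 1.33 times its share in other cells, Rpl39, deep in the exit tunnel, 1.11 to 1.30, and Rpl29 1.15 to 1.46. Those on the low side were Rps27, Rps14 at 0.76 to 0.93, Rpl13a at 0.81 to 0.88, Rpl13 at 0.77 to 0.95 and Rps28 at 0.87 to 0.94. Rpl13a is also known as a silencer of inflammatory messages when freed from the ribosome.

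At 1.5-fold in share few members passed beside many other genes. In skin Vγ4 there was 1 higher member (background 15.4%) and 0 lower (3.01%), in skin Vγ6 1 (8.59%) and 0 (2.69%), and in thymus 1 (12.1%) and 0 (4.92%), in each case Rps27l. In lymph node 5 passed upwards (13.7%), namely Rps27l, Rpl22l1, Rps2, Rpl7a and Rpl5, and 1 downwards (15.6%), Rps27. In the pool 4 passed upwards (23.1%), Rps27l, Rpl22l1, Rpl7l1 and Rpsa, and 0 downwards (8.82%). The members' counts were thus below the background in every library. This is in part built in, because members are divided by their own sum and the other genes are not divided by theirs.

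The authors' deposited table of means covers 8 Vγ6 clusters, named pLN_1, pLN_2, Skin and Thy_1 to Thy_5, without a number of cells or an error. In the authors' deposited table the 82 genes made up 17.3% of the mean total in pLN_1, 15.9% in pLN_2, 15.9% in Skin, 19.3% in Thy_1, 18.9% in Thy_2, 24.2% in Thy_3, 18.8% in Thy_4 and 20.8% in Thy_5. Thy_3 stood above the rest, and it held the highest mean of 64 of the 82 members. Rps27 was 105 in Thy_3, in units of 1 part in 10000, and 49.7 to 88.9 elsewhere in the authors' deposited table. The authors' deposited table of markers, whose p-values are over cells, listed 78 members for Thy_3, all with a positive natural log fold change, from 0.10 for Rpl10 to 0.52 for Rps12. Over every gene in the authors' deposited table for that cluster, 79.2% of 1367 were positive. Other genes leading that cluster there were Trf, Izumo1r, Cd9, Ifi27l2a, Nrgn and Icos. For Skin, 63 of 64 listed members were negative, with Rpl37 lowest at -0.68 and Rpl35 highest at 0.11, beside 84.9% negative among the 5053 genes of the authors' deposited table for Skin.

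**Figure D4:**
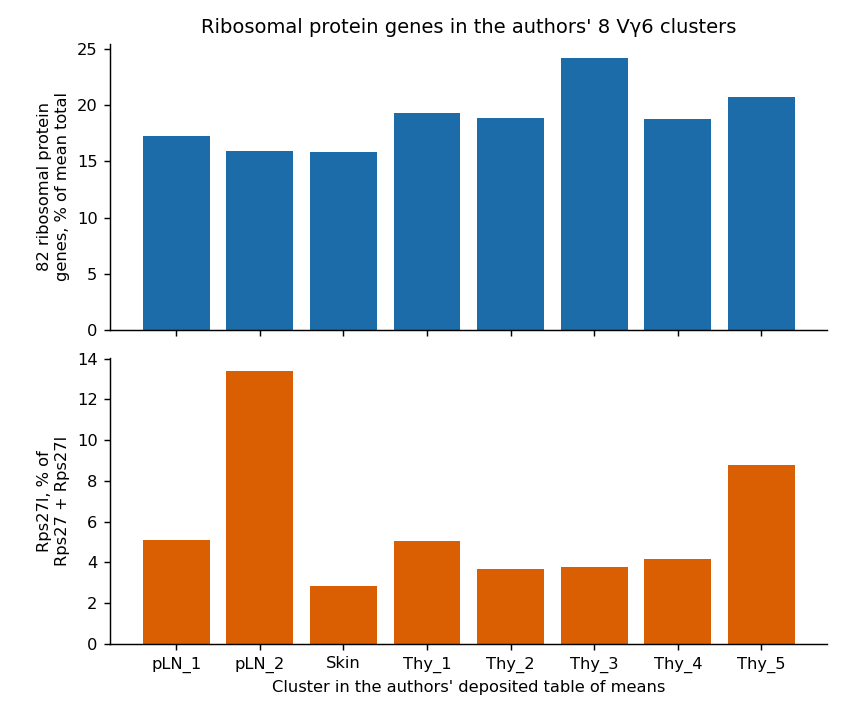
Top, share of the mean total (y axis, %) taken by the 82 ribosomal protein genes in each of the authors' 8 Vγ6 clusters (x axis), and bottom, Rps27l as % of the sum of Rps27 and Rps27l. Both come from the authors' deposited table of means, which has no error. Thy_3 is highest in the top panel at 24.2%, and pLN_2 and Thy_5 are highest in the bottom panel at 13.4% and 8.78%.

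The same clusters separated the paralogs. In the authors' deposited table Rps27l made up 13.4% of its pair in pLN_2 and 8.78% in Thy_5, 5.08% in pLN_1, 5.02% in Thy_1, 4.16% in Thy_4, 3.78% in Thy_3, 3.68% in Thy_2 and 2.83% in Skin. The summed means of the cycling genes were also highest in pLN_2, at 91.1, and Thy_5, at 54.0, against 6.63 in Skin. Over the 8 clusters the rank correlation of the 2 measures was 0.93, given as a description of clusters that come from shared libraries. Among the members listed for pLN_2 in the authors' deposited table, Rps27 had the lowest natural log fold change, -0.49, and Rps27l the highest, 0.57. Both clusters also differ from the others in genes beyond the cycling list, and the part of those in the pair was not tested. Relative to the set, 62 of 82 members stayed under 1.5-fold over the 8 clusters.

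Processed and near-identical copies were measured apart from the members, since reads of a parent and its copy can split between them. There are 16 with -ps in the symbol, and Rps27rt, an intronless Rps27 copy. The share of a copy's 31-base stretches also found in its parent's transcripts had a median of 70.9%, from 5.56% for Rpl36-ps4 to 100% for Rpl27-ps3 and Rps12-ps3. Rpl6l, counted among the members by its symbol, shares 72.2% with Rpl6 and is as uncertain as the copies. The 16 -ps copies summed to 3884 CPM in skin Vγ4, 3899 in skin Vγ6, 3445 in lymph node, 3038 in thymus and 11145 in the pool.

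The pool stood apart in nearly every copy. Of the 16 copies with any UMI it was the highest library for 16 and at least 2-fold above the next for 13. Rps18-ps3 was 430 CPM in skin Vγ4, 338 in skin Vγ6, 351 in lymph node, 240 in thymus and 2102 in the pool. Rps27rt was 1573, 1504, 1185, 1113 and 3356 CPM in the same order. Rps12-ps3 was level, at 376 CPM in skin Vγ4 and 378 in the pool. Rpl6l followed the copies, at 772 CPM in the pool and 341 to 497 elsewhere. Adding copies to parents changed the parents' order: Rpl9 was 1699 CPM in the pool and 2104 in skin Vγ4 without copies, and 3135 and 2477 with them. For Rps27 the copy did not turn the contrast of dividing cells. Rps27 and Rps27rt summed to 5884 CPM in dividing and 10038 in other lymph node cells. What differs in the making or processing of the pool, besides its mice and mixed tissues, is not given in the sources used here, and its part was not tested.

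**Figure D5:**
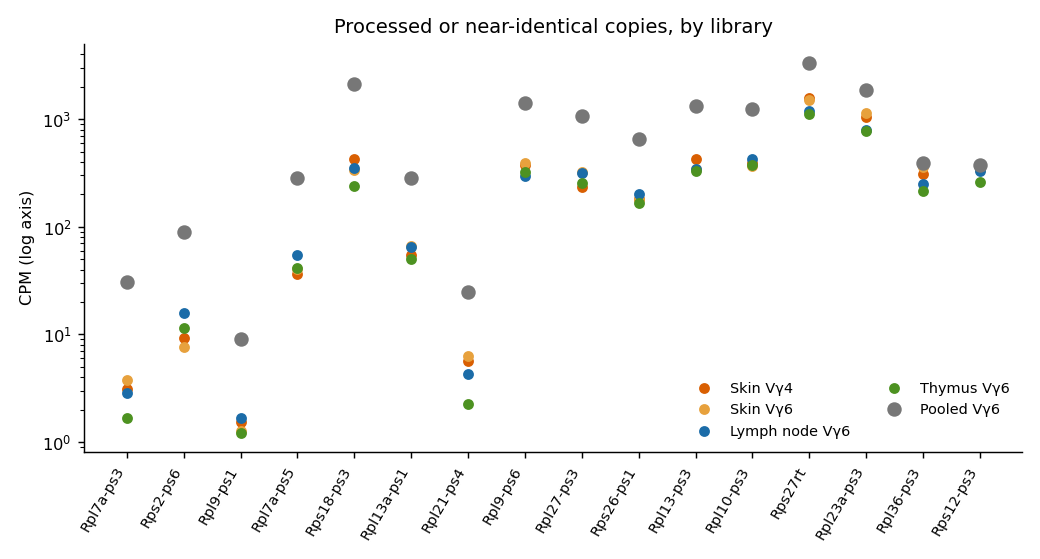
CPM (y axis, log scale) of the 16 processed or near-identical copies with any UMI (x axis, ordered by the pool's ratio to the next library) in the 5 libraries (colours). The pooled library lies above the others for most copies, and Rps18-ps3 reaches 2102 CPM there.

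Other genes of translation gave a mixed picture beside the members. Fau and Gnb2l1, which also encode proteins of the cytosolic ribosome, had no call in any comparison. Of 15 elongation factors and other messages with a pyrimidine tract, 0 were higher and 2 lower in skin Vγ6 over lymph node (background 16% and 30.4%), and the same numbers over thymus (background 13.7% and 24.5%). Both times these were Hnrnpa1, at 78 CPM in skin, 292 in lymph node and 358 in thymus, and Eef1g, at 237, 525 and 597. None of the 15 was called in thymus over lymph node or skin Vγ4 over Vγ6. Of 24 initiation factors 1 was higher and 2 lower in skin Vγ6 over lymph node, Eif1 rising to 4610 from 2039 CPM. Of 31 measured assembly factors 3 were higher and 4 lower there, Gnl3 at 193 against 63 and Dkc1 at 30 against 105 CPM, so neither list passed more often than genes at large.

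The mitochondrial ribosome, a separate machine with its own proteins, parted from the cytosolic set. Of its genes measured, 47 of 73 were called lower in skin Vγ6 than in lymph node (background 30.4%) and 0 higher (background 16%). Their median log2 ratio was -1.42, beside -0.14 for the cytosolic set, of which 2 of 82 were lower, and -0.38 over all genes. Their summed level was 3302 CPM in skin Vγ6, 3288 in skin Vγ4, 6123 in thymus, 8382 in lymph node and 5767 in the pool. Over thymus, 36 of 70 were lower in skin Vγ6 (background 24.5%), with a median of -0.999 against -0.27 over all genes. The 2 skin libraries were level in this sum although their cytosolic share differed by 1.27-fold. In thymus over lymph node 3 of 73 mitochondrial genes were lower (background 11.3%) and 1 higher (background 11.8%), with a median of -0.40. Cells called dividing at full depth were 4.66% in skin Vγ6 and 54.4% in lymph node. With cells thinned to 800 UMIs they were 28 of 562 and 451 of 1458. Their part in the mitochondrial contrast was not tested.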

How the data were processed

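The authors deposited, for each library, a matrix of raw UMI counts of 27998 genes by cell barcode, with no normalization. The submitters' processing notes name Cell Ranger 2.0, Seurat 2.3 and mm10, and which reads were counted for near-identical genes is not given in the sources used here. The authors also deposited a table of mean expression in 8 clusters, each column summing to 10000, and a table of markers whose natural log fold changes and p-values, the highest 0.00999, were computed by the authors over cells.

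Barcodes with at least 200 genes and at most 10% mitochondrial UMIs were kept and summed per library, and CPM are parts per 1e+06 of that sum. Doublets were not removed. Ratios carry exact conditional binomial intervals and shares Clopper-Pearson intervals at 95%. PCR duplicates were collapsed by UMI, and intervals cover counting error only. A count of 0 was bounded by 3 counts. The members, lists and alternatives were chosen with earlier results of these data known. Named genes were the 6 highest and 6 lowest members of each comparison by share within the set, ranked by the interval bound nearest 1, with at least 100 CPM, the 5 most abundant, and fixed lists of paralogs, the P stalk and the 5S particle. Rpl30 in skin over lymph node, genes named for the contrast of dividing cells and the pooled library's copies were chosen after their values were seen. Alternatives changed the cells kept, the scaling, the depth, the pseudocount, the filter and the fold of a call. Python 3.11.15, numpy 2.4.6, scipy 1.17.1, pandas 2.3.3 and matplotlib 3.10.9 were used, and edgeR 4.0.16 for TMM factors alone. Sequences came from a RefSeq table of build GRCm38.p6, and transcripts for the 31-base comparison from GENCODE M21. Protein sequences were not used here, and 1 gene of the lists is not reported here.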

Additional observations from a re-analysis of the deposited data

Results flagged for a closer look

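The processed copies lie outside the 82 genes and showed a signal in every library: their summed level was 3884 CPM in skin Vγ4, 3899 in skin Vγ6, 3445 in lymph node, 3038 in thymus and 11145 in the pooled library, where Rps18-ps3, Rpl9-ps6 and Rpl23a-ps3 were the most abundant. Within the ribosomal protein UMIs, 2 members had intervals on opposite sides of 1 for dividing over other cells in different libraries. Rplp0 had ratios of 1.22 in lymph node, 1.05 in thymus and 1.12 in the pool and 0.85 in skin Vγ6. Rpl11 had 1.11 in the pool and 0.94 in lymph node. These differences between libraries were not tested.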

How the results depend on the processing

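Each group had 1 library, so none was left out in turn. Depth sets the counting error, and values that moved when cells were thinned are given below. No paired analysis was possible because the groups have 1 library each and carry no replicate numbers. Of the alternative values of the main results 137 stayed level, 69 moved and 2 reversed, and the cause was not tested.

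The share of UMIs moved past its counting interval under several alternatives. With at least 500 genes per cell it was 16.0% in skin Vγ6 and 15.3% in the pool. With at most 5% mitochondrial UMIs it was 14.8% in skin Vγ6, 17.3% in lymph node and 19.1% in thymus. Over every barcode it was 19.6% in skin Vγ4, 15.5% in skin Vγ6 and 19.4% in thymus. Without the 5% of cells with the most UMIs it was 20.2% and 15.8% in the skin libraries, 16.1% in lymph node and 15.3% in the pool. Skin Vγ6 and lymph node thus lay closer together than in the main values. Without cells with markers of another type it was 16.6% in lymph node, 19.4% in thymus and 15.3% in the pool. Without dividing cells it was 20.4% in skin Vγ4, 19.9% in thymus and 15.4% in the pool. The mean over cells was 20.04%, 15.7%, 16.4%, 19.1% and 14.9% for skin Vγ4, skin Vγ6, lymph node, thymus and pool. With the copies, an alternative added after seeing the data, it was 20.7%, 16.5%, 17.5%, 19.8% and 16.7%.

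The median log2 ratio in skin Vγ6 over lymph node was -0.27 with at most 5% mitochondrial UMIs, -0.029 without the deepest cells, -0.040 without cells with other markers, -0.066 without dividing cells, -0.028 thinned to 800 UMIs, and reversed to 0.12 by TMM and 0.14 by median-of-ratios scaling. In thymus over lymph node these were 0.15, 0.31, 0.28, 0.27 and 0.25, with 0.32 for TMM. In skin Vγ6 over thymus TMM gave -0.20 and median of ratios -0.10. In skin Vγ4 over Vγ6 it was 0.46 with at most 5% mitochondrial UMIs and 0.45 with TMM.

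Members called lower in skin Vγ6 over lymph node were 1 with either factor and thinned, and 6 at 1.5-fold. In skin Vγ6 over thymus they were 1 with at least 500 genes, without dividing cells, with TMM or thinned, 0 with median-of-ratios factors and 15 at 1.5-fold. At 1.5-fold, 2 were lower in thymus over lymph node and 4 higher in skin Vγ4 over Vγ6. Balance calls in skin Vγ6 over lymph node were 3 without cells with other markers, without dividing cells or thinned, and 1 at 2-fold. In thymus over lymph node they were 1 in the first 2 of these and 0 at 2-fold, and in skin Vγ6 over thymus 1 without dividing cells and 0 at 2-fold. In skin Vγ4 over Vγ6, Rpl7l1 made 1 call with at least 500 genes, at most 5% mitochondrial UMIs, without cells with other markers, without dividing cells and thinned.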
